A study of Homo sapiens with 25 samples.

Results

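The genes described here encode the proteins of the cytosolic ribosome. Members were chosen by name: RPL or RPS followed by a number and an optional A or X, RPLP0 to RPLP2, and RPSA. This rule gave 77 of the 59427 gene names in the expression table, 46 for the large subunit and 31 for the small subunit, and used no measured value. FAU and RACK1, whose products also reside in the ribosome, fall outside the rule and are given separately.

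The study transfected 2 established human non-small cell lung cancer lines, A549 (adenocarcinoma) and NCI-H460, with antisense oligonucleotides (ASOs) against 2 long noncoding RNA candidates and sequenced RNA 24 h later at a dose of 25 nM. Each line had 5 groups: a neutral control ASO (Qiagen Control A), candidate 42 ASO3, candidate 42 ASO5, candidate 240 ASO1 and candidate 240 ASO3. The 25 libraries comprise replicates 3, 4 and 5 of each A549 group and replicates 1 and 2 of each NCI-H460 group. Each line is 1 established culture, all groups including the controls received an ASO, and no untreated group was analysed here. The labels do not say that replicates were separate cultures, so p-values measure only the spread between these libraries, which may be technical.

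Values are TPM (a transcript level normalised for transcript length and library total), rescaled by the authors, and column sums ran from 924350 to 1179224. TPM keeps no record of read number, so depth is unknown and no counting interval is given. All 6 epithelial markers of a list (EPCAM, CDH1, KRT7, KRT8, KRT18 and KRT19) reached a mean of 1 TPM in A549. In NCI-H460 4 of 6 did: KRT8 averaged 993 TPM and KRT19 1926 TPM, while EPCAM averaged 0.587 TPM and CDH1 0.102 TPM. Of the other cell type lists, summed leukocyte markers stayed between 6.96 and 29.4 TPM in all libraries. Of these 5 markers 1, CD14, reached a mean of 1 TPM, with 14.8 TPM in A549 and 17.8 TPM in NCI-H460, and CD3E was at 0. Summed endothelial markers stayed below those at 0.0863 to 0.708 TPM. Summed erythroid markers lay between 0.00372 and 16.2 TPM, and HBA1 averaged 0.758 TPM in A549 and 8.95 TPM in NCI-H460. Summed mesenchymal markers were 611 to 930 TPM in A549 and 864 to 1172 TPM in NCI-H460, nearly all from VIM, which carcinoma lines also express.

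The eukaryotic ribosome joins a small subunit, which reads the messenger RNA, to a large subunit, which forms the peptide bond. Its proteins are needed in about equal amounts, and their genes lie on 21 chromosomes. Vertebrate ribosomal protein messenger RNAs usually begin with a C followed by an unbroken stretch of pyrimidines, the terminal oligopyrimidine (TOP) motif, through which the mTOR kinase pathway and the RNA-binding protein LARP1 control their translation and stability. These messenger RNAs are short, and because they are abundant they take up a large share of a cell's transcripts.

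The start of a ribosomal protein messenger RNA is its shared regulatory feature, so the starts of the genes on which the results turn are shown first. Each line gives 15 bases before and 15 bases from the transcription start, 5′ to 3′ on the gene's strand, from RefSeq (GRCh38.p14). Capitals mark the pyrimidine run that begins at the start base.
RPL12: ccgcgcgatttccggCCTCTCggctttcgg
RPS16: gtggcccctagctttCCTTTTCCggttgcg
RPS19: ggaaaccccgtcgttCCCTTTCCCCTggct
RPL28: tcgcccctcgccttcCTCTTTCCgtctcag
RPLP2: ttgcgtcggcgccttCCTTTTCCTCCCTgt
RPL41: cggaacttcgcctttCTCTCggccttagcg
RPL9: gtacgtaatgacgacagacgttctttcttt
RPL4: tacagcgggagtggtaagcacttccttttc
The windows lie at chr9:127451392-127451421 (RPL12, minus strand), chr19:39435935-39435964 (RPS16, minus), chr19:41860240-41860269 (RPS19, plus), chr19:55385917-55385946 (RPL28, plus), chr11:809952-809981 (RPLP2, plus), chr12:56116618-56116647 (RPL41, plus), chr4:39458908-39458937 (RPL9, minus) and chr15:66504841-66504870 (RPL4, minus). Each spans the end of the promoter and the first bases of the annotated first exon. RPL9 and RPL4 have no capitals because their annotated starts are not a C. RPS19 has 2 starts in the RefSeq table, of which the one with the motif is shown.

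Of the 77 members, 62 were found in the promoter table, and 46 of these (74.2%) had at least 1 annotated start with a C followed by at least 4 bases that are each C or T, read on the gene's strand only. The same motif stood at a start of 5.14% of all 27305 genes in the table and of 7.4% of the 10401 genes there whose mean reached 1 TPM in these libraries. It was present in 7 of the 8 other translation genes found there and in 5 of 35 ribosome assembly genes (14.3%). The motif was searched only at the annotated start base, so a start shifted by 1 base counts as lacking it.

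In the control libraries ribosomal protein genes were among the most abundant transcripts of both lines. Of the 77, 49 ranked in the top 100 of all genes in A549 and 61 in NCI-H460. Over all libraries the lowest value of any member was 239 TPM (RPL9 in A549) and the highest 12069 TPM (RPS19 in A549), so all 77 passed the filter of a mean of 1 TPM. The 5 highest in A549 controls were RPS19 (7557 ± 1208 TPM, SD, n = 3), RPL41, RPL35, RPL13 and RPS27. The 5 highest in NCI-H460 controls were RPS27 (6144 ± 649 TPM, SD, n = 2), RPS21, RPL35, RPS2 and RPL31. RPL41 encodes the smallest protein of the ribosome, and RPS19 is the gene most often mutated in Diamond-Blackfan anaemia, an inherited failure of red cell production.

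The lowest members were RPL9, RPS26, RPL22, RPL14 and RPL21 in A549 (306 to 613 TPM) and RPS26, RPL22, RPL21, RPL14 and RPL36A in NCI-H460 (513 to 1141 TPM). Thus 4 genes, RPS26, RPL22, RPL14 and RPL21, were at the bottom in both lines. RPL22, which is not needed for protein synthesis in many cells, had 517 ± 33.3 TPM (SD, n = 3) in A549 controls and 710 ± 39.4 TPM (SD, n = 2) in NCI-H460 controls. Over the 77 genes the log2 control means of the lines had a Pearson r of 0.818 and a Spearman rho of 0.838, a description across genes that share libraries and transcript models, not across replicates.

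**Figure D1:**
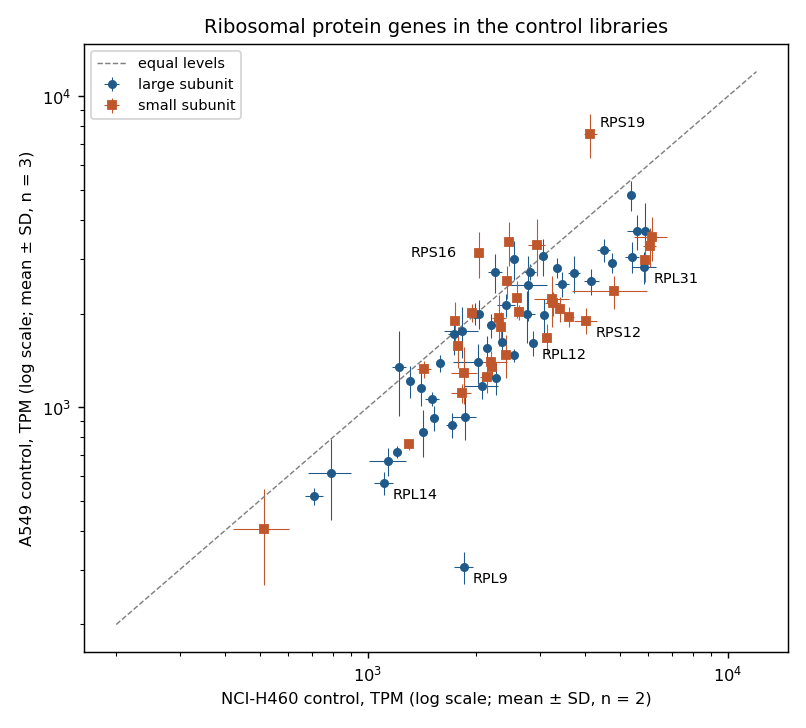
Mean TPM of each ribosomal protein gene in the NCI-H460 controls (x axis, n = 2) against the A549 controls (y axis, n = 3), both on log scales, with bars for the SD and a dashed line of equal levels. Circles are large subunit genes and squares small subunit genes. RPL9 lies far below the line and RPS19 above it.

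RPL9, a protein of the large subunit, differed most between the lines. The A549 control libraries had 311, 268 and 339 TPM and the NCI-H460 controls had 1769 and 1925 TPM. The ranges did not overlap in any group: all 15 A549 libraries lay between 239 and 586 TPM, and the lowest of the 10 NCI-H460 libraries had 1590.4 TPM. The log2 difference between controls was -2.60 (SE 0.26, limma adjusted p = 5.77e-08), a level in A549 of 0.166 times that in NCI-H460, and it lay between -2.82 and -2.26 under the other scalings tried. Entries named as RPL9 pseudogenes summed to a median of 0.761 TPM in A549 and 0.714 TPM in NCI-H460.

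RPS19 went the other way. A549 controls had 8942, 7008.5 and 6722 TPM and NCI-H460 controls 4275 and 4025.5 TPM, with no overlap between the control groups (log2 difference 0.85, SE 0.22, limma adjusted p = 0.00228). Across all groups the ranges did overlap, because candidate 42 ASO3 replicate 1 reached 7626 TPM in NCI-H460. RPS16, a small subunit protein near the decoding centre, was also higher in A549 (log2 difference 0.61, limma adjusted p = 0.0383). This call was less stable: it held in 8 of the 10 settings tried, with a limma adjusted p of up to 0.25. The difference was 0.48 to 0.69 with each control library left out in turn. Across all groups its ranges overlapped, at 2279 to 4984 TPM in A549 and 1753 to 3509 TPM in NCI-H460.

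Among all genes tested, 54.9% differed between the control libraries of the lines, 36.4% higher and 18.4% lower in A549. Of the 77 members, 43 did, with 41 lower and 2 (RPS19 and RPS16) higher in A549. RPS12 (-1.09), RPL31 (-1.06), RPS29 (-1.02) and RPL36 (limma adjusted p = 0.0011) followed RPL9 among the lower ones. The median log2 difference was -0.51 over the members and 0.21 over all genes tested. For 23 of the 77 members all libraries of NCI-H460 exceeded all of A549, which also held for 9.22% of the genes tested, and for 0 members the reverse held, against 22.2% of the genes tested. Line, replicate number and any separate processing of the lines cannot be told apart and the sources used here do not say whether the authors rescaled the lines together. With each library set to a sum of 1e6, 51 members were lower and 3 higher in A549. Set against the median ribosomal protein gene of each library, 36 were lower and 18 higher, and RPL9 (-2.26), RPS19 (1.19) and RPS16 (0.95) kept their directions. That setting places the members of each library around 0. Its balance of lower and higher members is thus partly fixed in advance and cannot be compared with the 41 and 2. The shares of all genes called under these settings are not given here.

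The 77 genes together held 14.5% to 20.0% of the summed TPM in A549 libraries and 20.8% to 26.4% in NCI-H460 libraries, so the lines did not overlap. The controls held 15.5% ± 0.983 (SD, n = 3) in A549 and 21.6% ± 0.21 (SD, n = 2) in NCI-H460. The share is free of the rescaling between libraries. The summed large subunit TPM was 1.26 to 1.34 times the summed small subunit TPM in A549 and 1.32 to 1.39 times in NCI-H460.

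**Figure D2:**
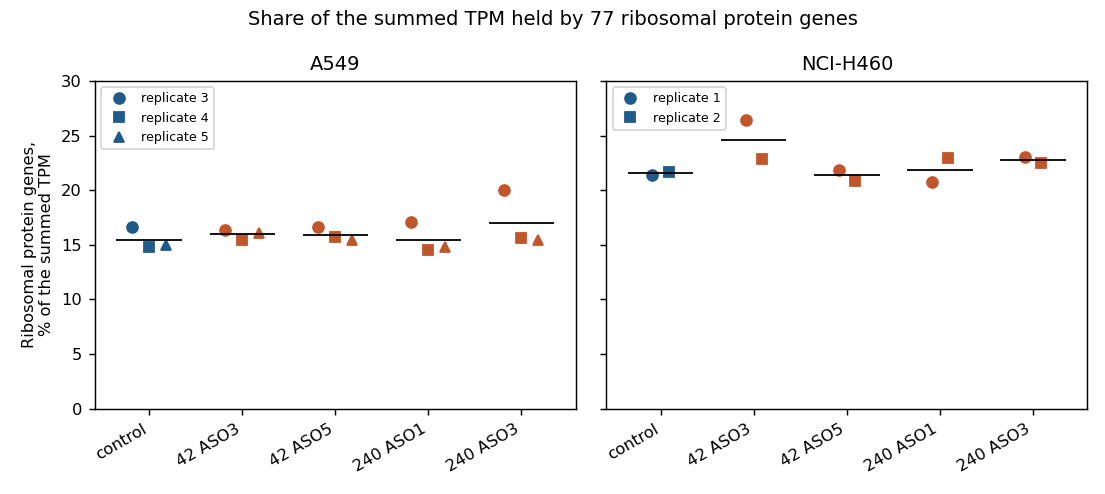
Share of the summed TPM held by the 77 ribosomal protein genes (y axis, %) in each library, by ASO group (x axis), for A549 (left) and NCI-H460 (right). Points are libraries, shapes are replicate numbers, and lines are group means. The highest library of each line is replicate 3 of candidate 240 ASO3 in A549 (20.0%) and replicate 1 of candidate 42 ASO3 in NCI-H460 (26.4%).

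In A549 the shares of all 4 ASO groups overlapped those of the controls. Control replicates 3, 4 and 5 held 16.6%, 14.8% and 14.97%. Candidate 42 ASO3 held 16.4%, 15.4% and 16.1%, candidate 42 ASO5 held 16.6%, 15.8% and 15.4%, and candidate 240 ASO1 held 17.1%, 14.5% and 14.8%. Candidate 240 ASO3 held 20.0%, 15.6% and 15.4%, so replicate 3 lay far above the other 2, which were within the range of the controls. The replicate numbers pair these groups, and within the pairs this ASO was higher than the control in 3 of 3. Replicate 3 was the highest library in each of the 5 A549 groups.

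In NCI-H460 the controls held 21.4% and 21.7%. Candidate 42 ASO3 held 26.4% and 22.8%, both above the controls but far apart from each other. Candidate 42 ASO5 held 21.8% and 20.9%, candidate 240 ASO1 held 20.8% and 23.0%, and candidate 240 ASO3 held 23.0% and 22.5%. The library with the highest share in each line also had the largest column sum, 1179224 in A549 and 1173905 in NCI-H460. The part of that library's scaling in the results below was not tested beyond the alternatives given.

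Gene by gene, limma on log2(TPM + 0.5) with Benjamini-Hochberg adjustment over all genes tested (a call is an adjusted p under 0.05) called few members, and none was called lower in any of the 8 comparisons with the control ASO. In A549 the counts were 0 of 77 for candidate 42 ASO3 (10.1% of all genes tested), 0 for candidate 42 ASO5 (3.82%), 0 for candidate 240 ASO1 (0.0%) and 1 for candidate 240 ASO3 (13.8%). At an unadjusted p under 0.05 limma gave 0, 1, 0 and 1 members. In NCI-H460 the counts were 10 higher for candidate 42 ASO3 (46.0%), 0 for candidate 42 ASO5 (0.508%), 0 for candidate 240 ASO1 (0.0%) and 0 for candidate 240 ASO3 (5.66%), with 30, 0, 0 and 1 members at an unadjusted p under 0.05. The 10 of 77 called higher with candidate 42 ASO3 in NCI-H460 stand beside 13.2% of all genes tested called higher in that comparison, a share near the background. The 0 members called lower stand beside 32.8% of all genes tested called lower.

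The median log2 fold change of the 77 was 0.05, 0.06, 0.01 and 0.14 in A549 (candidate 42 ASO3, candidate 42 ASO5, candidate 240 ASO1 and candidate 240 ASO3), against 0.02, 0.02, 0.01 and -0.01 over all genes tested. In NCI-H460 it was 0.33, 0.05, 0.10 and 0.17 in the same order, against -0.20, 0.01, -0.00 and -0.03. The members were above the control mean in 53, 52, 41 and 71 of 77 cases in A549 and in 76, 56, 66 and 77 of 77 in NCI-H460. Within a library these genes shift together, so such counts are not counts of independent genes. The median spread of a member between replicates was 0.24 in A549 and 0.19 in NCI-H460 (SD of log2 TPM), and fell to 0.078 and 0.086 once each library was set to its own median ribosomal protein gene.

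The shared shift depended on how libraries were scaled. For candidate 42 ASO3 in NCI-H460 the median was 0.33 as deposited, 0.18 with each library set to a sum of 1e6, 0.56 with median-of-ratios scaling and 0.05 after cyclic loess, which removes shifts that go with abundance. The medians of all genes tested under the same scalings were -0.20, -0.34, 0.01 and 0.02. For candidate 240 ASO3 in A549 the median was -0.10 without replicate 3 of that group, a fit that keeps the high control replicate 3 and so breaks the pairing. Within replicate numbers 3, 4 and 5 the median member ratio to the control was 1.34, 0.967 and 1.01. The positive sign thus rested on replicate 3, and the other pairs lay near equal levels. The sign also turned without 1 library for candidate 42 ASO3 and candidate 42 ASO5 in A549 (-0.0016 and -0.010 without control replicate 5) and for candidate 42 ASO5 in NCI-H460 (-0.032 without its replicate 1). For candidate 240 ASO1 in A549 it turned without its replicate 3 (-0.12), control replicate 4 (-0.018) or control replicate 5 (-0.055). These fits also break pairs, and within replicate numbers 3, 4 and 5 the median member ratio was 1.05, 0.949 and 1.01. The median changed sign with the scaling for candidate 42 ASO5 in NCI-H460 (-0.018 with sums of 1e6, -0.034 after cyclic loess), for candidate 240 ASO1 in NCI-H460 (-0.015 after cyclic loess) and for candidate 240 ASO1 in A549 (-0.0032 with median-of-ratios scaling).

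**Figure D3:**
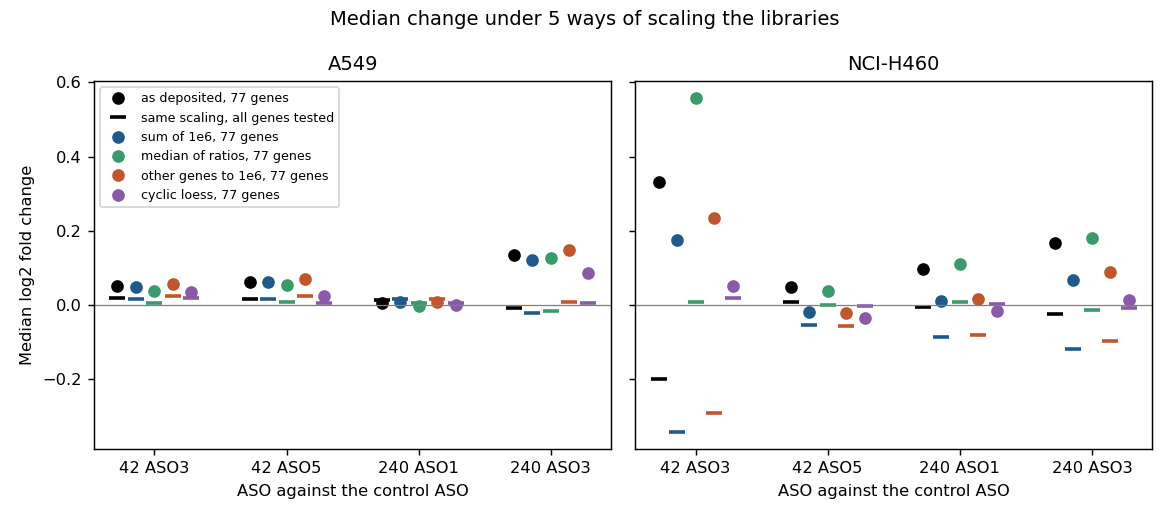
Median log2 fold change against the control ASO (y axis) of the 77 ribosomal protein genes (circles) and of all genes tested (dashes) for each ASO (x axis) in A549 (left) and NCI-H460 (right), under 5 ways of scaling the libraries, by colour. The widest range is for candidate 42 ASO3 in NCI-H460, from 0.05 to 0.56.

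The median log2 fold changes of the large and small subunits were 0.33 and 0.33 with candidate 42 ASO3 in NCI-H460, 0.16 and 0.18 with candidate 240 ASO3 in NCI-H460, and 0.14 and 0.14 with candidate 240 ASO3 in A549. The largest gap in A549 was with candidate 42 ASO5, at 0.08 for the large and 0.00 for the small subunit. In that group the summed large subunit TPM was 1.34, 1.31 and 1.33 times the small, above the 1.27, 1.30 and 1.29 of the controls. In NCI-H460 the same ASO gave ratios of 1.372 and 1.394 against 1.371 and 1.334 in controls, with medians of 0.07 for the large and 0.03 for the small subunit. The ratios with candidate 42 ASO5 thus lay above those of the controls in both lines, by a narrow margin in NCI-H460, and the difference was not tested.

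Of the 10 genes that rose with candidate 42 ASO3 in NCI-H460, 5 belonged to each subunit. In the large subunit they were RPLP1 and RPLP2, the acidic proteins of the stalk that recruits elongation factors, and RPL13A, RPL18 and RPL28. In the small subunit they included RPS3, which lies at the messenger RNA entry channel, RPS9, RPS15 and RPS16. Their log2 fold changes ran from 0.43 (RPL13A) to 0.59 (RPLP2) with limma adjusted p from 0.018 (RPS16) to 0.0491 (RPL18).

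RPLP2 had 5017 and 3489.8 TPM with candidate 42 ASO3 against 3037 and 2541 TPM in the NCI-H460 controls. Both libraries were above both controls (log2 fold change 0.59, SE 0.19, limma adjusted p = 0.0292). In A549 the same ASO gave 3156, 2427 and 2710.1 TPM against 3148.5, 2234 and 2051 TPM, overlapping values (log2 fold change 0.17, adjusted p = 0.696). RPL28 had 2098 and 1512 TPM against 1260.5 and 1182 TPM in NCI-H460 (log2 fold change 0.55, SE 0.16, limma adjusted p = 0.0216). RPS3 had 4226.5 and 3189 TPM against 2551 and 2628 TPM (log2 fold change 0.50, SE 0.15, limma adjusted p = 0.0257). For each of these genes replicate 1 was the higher library.

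These calls depended on single libraries. Without replicate 1 of candidate 42 ASO3 0 members were called and the median fell to 0.13, without replicate 2 of that group 54 were called with a median of 0.59, and without either control library 0 were called. With only the 2 compared groups in the fit 0 were called, and without the filter on low values 0. The shares of all genes called in these fits are not given here. The counts therefore do not tell a change among the members from a change over all genes.

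**Figure D4:**
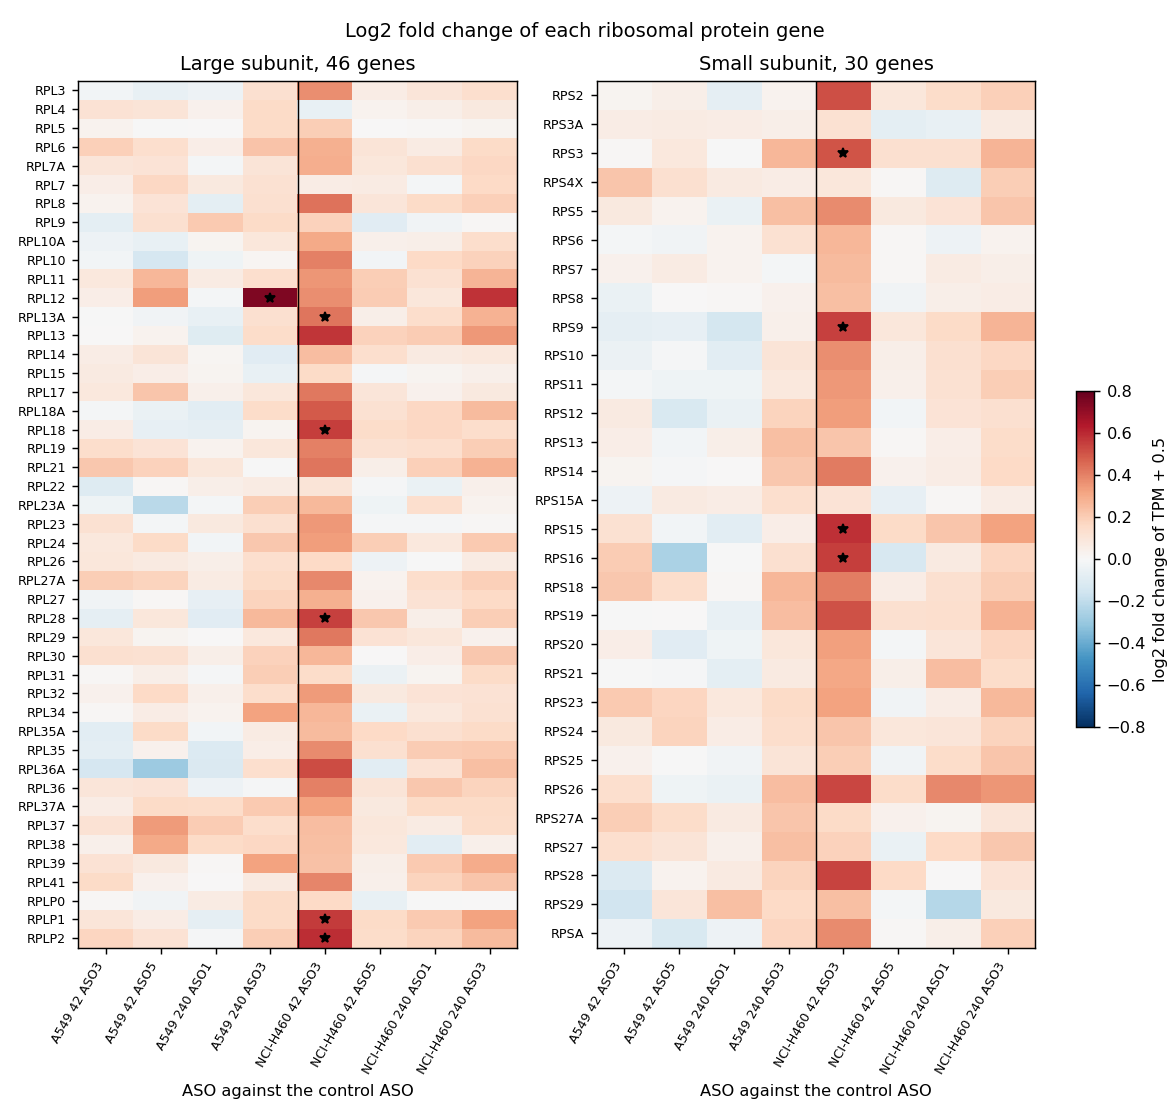
Log2 fold change of TPM + 0.5 against the control ASO for each large subunit gene (left) and small subunit gene reported (right) in 8 comparisons (columns, A549 then NCI-H460). Red is higher with the ASO, blue is lower, and stars mark calls by limma at an adjusted p under 0.05: 1 in A549 (RPL12) and 9 in NCI-H460 among the genes drawn.

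Other members of known roles did not pass the test with candidate 42 ASO3 in NCI-H460. RPL5 and RPL11, which bind MDM2 when free of the ribosome and thereby stabilise p53, had log2 fold changes of 0.19 (95% interval -0.05 to 0.44) and 0.35 (0.01 to 0.69), with limma adjusted p = 0.163 and 0.0819. RPL26 had 0.16 and RPL22 0.10. RPS6, the substrate of the S6 kinases, had 0.27 (limma adjusted p = 0.223), RPS19 0.51 (0.0795) and RPSA, also known as a laminin receptor, 0.38 (0.115). RPL3, at the peptidyl transferase centre, had 0.37 (0.069) and RPL10, which joins late in assembly, 0.40 (0.0814). RPLP0, the base of the stalk that holds RPLP1 and RPLP2, had 0.16 (limma adjusted p = 0.483). RPL38, RPL39, RPL41, RPS14, RPS27, RPS27A and RPS4X had log2 fold changes from 0.09 to 0.41.

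RPL12, a large subunit protein at the base of the stalk, was the member called with candidate 240 ASO3. Its gene lies on the minus strand at chr9:127447674-127451406 (hg38). With candidate 240 ASO3 it had 3493, 2272 and 2462.5 TPM in A549 against 1786, 1528.5 and 1522 TPM in the controls. All 3 libraries lay above all controls, a log2 fold change of 0.74 (SE 0.16, 95% interval 0.41 to 1.08, limma adjusted p = 0.00525). The other 76 members did not pass in this comparison. The other ASO against the same candidate, 240 ASO1, gave 1827, 1469 and 1492 TPM, overlapping the controls (log2 fold change -0.02, adjusted p = 1). The direct comparison of the 2 ASOs gave 0.76 (SE 0.16, limma adjusted p = 0.00437) and called RPL12 as the only member, against 16.7% of all genes tested. The replicate numbers paired these groups, and with the number as a block 2 members were called. The 16.7% belongs to the fit without the block, and the share of all genes called with the block is not given here.

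In NCI-H460 candidate 240 ASO3 gave RPL12 values of 4332 and 4239 TPM against 2878 and 2875 TPM in controls. Both libraries were above both controls, with a log2 fold change of 0.58 (SE 0.16, 95% interval 0.21 to 0.94) that did not pass over all genes (limma adjusted p = 0.0721). Candidate 240 ASO1 gave 2882 and 3242 TPM (0.09, adjusted p = 0.943). The direct comparison of the 2 ASOs gave 0.49 (limma adjusted p = 0.172), and 0 members were called in it (2.92% of all genes tested; 2 members at an unadjusted p under 0.05). The call in NCI-H460 was made under some other settings: the limma adjusted p was 0.023 with libraries set to a sum of 1e6 (0.47), 0.0104 after cyclic loess (0.42) and 0.0221 with only the 2 groups in the fit. In 6 of the 11 settings tried it was not made. The log2 fold change was 0.56 to 0.59 with each library left out in turn. The responses of the lines to candidate 240 ASO3 differed by 0.17 (95% interval -0.33 to 0.66, limma adjusted p = 0.888).

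Candidate 42 ASO5 gave 2148, 2081 and 1875 TPM of RPL12 in A549, all above the 3 controls (log2 fold change 0.34, limma adjusted p = 0.299). With libraries set to a sum of 1e6 it passed (limma adjusted p = 0.0345), and after cyclic loess also (0.00658), but in 8 of the 11 settings tried it did not. In NCI-H460 it gave 3485 and 3146 TPM (0.20, adjusted p = 0.591). Candidate 42 ASO3 gave 1736, 1576 and 1702 TPM in A549 (0.05, adjusted p = 0.881) and 4367 and 3165 TPM in NCI-H460 (0.37, adjusted p = 0.0894), where the median member was higher too.

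**Figure D5:**
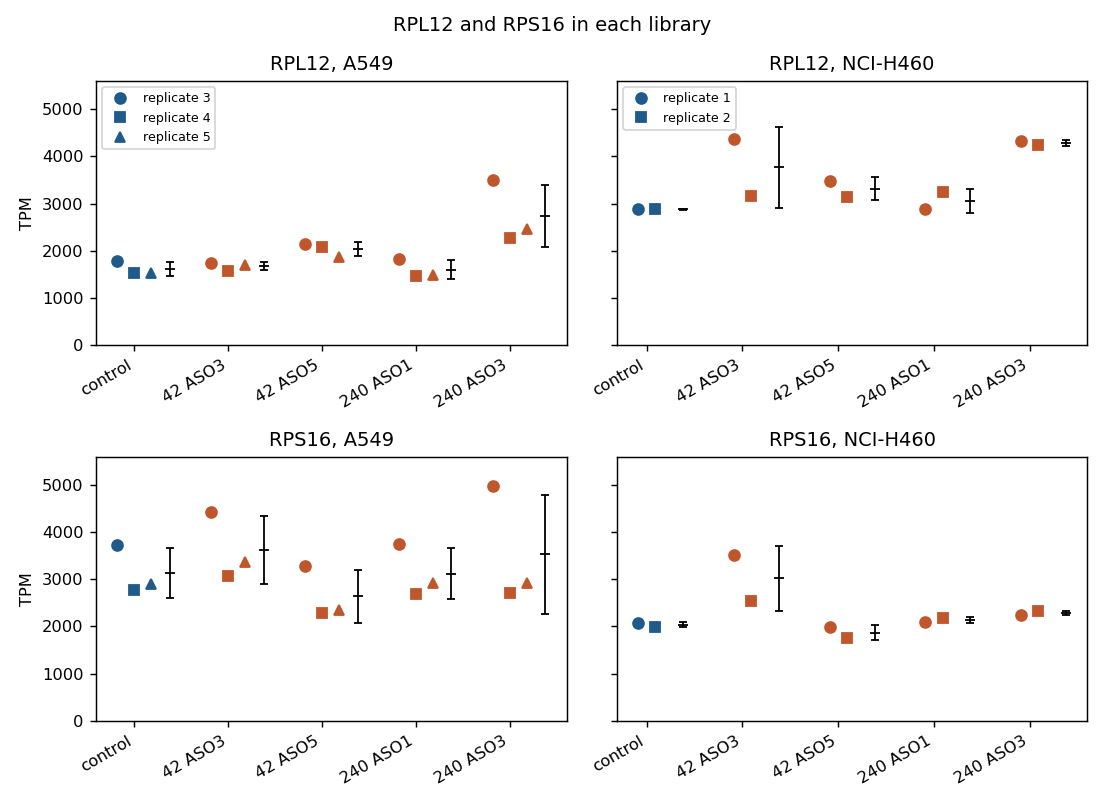
TPM (y axis) of RPL12 (top) and RPS16 (bottom) in each library, by ASO group (x axis), in A549 (left) and NCI-H460 (right). Points are libraries, shapes are replicate numbers, and bars are the mean ± SD (n = 3 or 2). RPL12 is highest with candidate 240 ASO3 in A549, where its 3 libraries lie between 2272 and 3493 TPM and the controls between 1522 and 1786 TPM.

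Set against the median ribosomal protein gene of its own library, which cancels any scaling, RPL12 fell into separate ranges. In A549 the 9 libraries of the control, candidate 42 ASO3 and candidate 240 ASO1 lay between -0.27 and -0.14 on the log2 scale. The 3 libraries of candidate 42 ASO5 lay at 0.05, 0.17 and 0.09, and those of candidate 240 ASO3 at 0.33, 0.38 and 0.46. In NCI-H460 the candidate 240 ASO3 libraries lay at 0.74 and 0.82, those of candidate 42 ASO5 at 0.42 and 0.46, and the controls at 0.27 and 0.31, with candidate 42 ASO3 (0.30 and 0.32) and candidate 240 ASO1 (0.22 and 0.31) close to the controls. Replicate 3 of candidate 240 ASO3 in A549, the library with the highest share, was thus the lowest of its 3 by this measure.

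On these centred values, a scaling added after the data were seen, limma called RPL12 higher with candidate 240 ASO3 in A549 (0.60, SE 0.05, adjusted p = 1.8e-05; 8.58% of all genes called), with candidate 42 ASO5 in A549 (0.32, adjusted p = 0.0132; 1.18%) and with candidate 240 ASO3 in NCI-H460 (0.49, adjusted p = 0.0162; 0.871%). It also called RPL12 between the ASOs of a candidate: 42 ASO5 against ASO3 in A549 (0.31, adjusted p = 0.0046; 5.37%), and 240 ASO3 against ASO1 in A549 (0.61, adjusted p = 1.57e-05; 9.42%) and in NCI-H460 (0.51, adjusted p = 0.0205; 0.617%). RPL39, at the peptide exit, was called higher with candidate 240 ASO3 in A549 (0.18, adjusted p = 0.0385) and RPL14 lower (-0.23, adjusted p = 0.0497).

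The RPL12 call with candidate 240 ASO3 in A549 kept an adjusted p of 0.00432 to 0.0269 when each library was left out in turn, with a log2 fold change of 0.56 without replicate 3 of that ASO. It was lost with only the compared groups in the fit (adjusted p = 0.109). Ratios to the control of the same replicate number were 1.96, 1.49 and 1.62, against 1.34, 0.967 and 1.01 for the median member. In A549 the replicate numbers of these groups paired the samples, and with the number as a block the adjusted p was 0.000219.

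RPS16 separated the 2 ASOs against candidate 42. In NCI-H460 it had 3509 and 2538 TPM with ASO3, 1978 and 1753 TPM with ASO5 and 2068 and 1997 TPM in controls, so ASO3 was above and ASO5 below the controls without overlap. The direct comparison, ASO5 against ASO3, gave -0.68 (SE 0.15, limma adjusted p = 0.0106), and RPS16 was the only member called in it (33.3% of all genes tested). The adjusted p was 0.0828 without replicate 2 of ASO5, 0.0566 without the filter on low values and 0.0973 with only the 2 groups in the fit.

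In A549 RPS16 had 4431, 3065 and 3371 TPM with ASO3, 3289, 2279 and 2353 TPM with ASO5, and 3729.5, 2770.4 and 2892.5 TPM in controls, which overlap when replicate numbers are ignored. The direct comparison gave -0.46 (SE 0.24, limma adjusted p = 0.271), and 0 members were called in it, also at an unadjusted p under 0.05 (10.7% of all genes tested). The replicate numbers passed the pairing rule for these groups, and with the number as a block RPS16 was called (limma adjusted p = 0.00414). That pairing is not clear by number. In deviations from the group means, replicate 5 of ASO5 correlated more with replicate 4 of ASO3 (0.247) than with replicate 5 of ASO3 (0.128). Ratios to the control of the same number were 1.19, 1.11 and 1.17 with ASO3 and 0.882, 0.823 and 0.814 with ASO5. The pairing rule did not hold for either ASO against the control (lowest same-number correlation 0.09 with ASO3 and 0.021 with ASO5). These ratios are thus only a description and do not show a separation from the control. On centred values RPS16 was called lower with ASO5 than with ASO3 in NCI-H460 (-0.38, limma adjusted p = 0.00968; 34.3% of all genes called) and in A549 (-0.43, adjusted p = 0.0221), and RPL35A was called higher in A549 (0.27, adjusted p = 0.0222).

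RPL4, which lines the peptide exit tunnel, was the 1 member below its control mean with candidate 42 ASO3 in NCI-H460, with 2786 and 2640 TPM against 2897 and 2750 TPM (log2 fold change -0.06, limma adjusted p = 0.705). On centred values it was called lower (-0.41, SE 0.12, limma adjusted p = 0.0236; 42.7% of all genes called), and higher with ASO5 than with ASO3 (0.38, adjusted p = 0.0369). Its centred values with ASO3 were -0.35 and 0.06, against 0.28 and 0.24 in controls, so most of that difference came from replicate 1. In A549 RPL4 had a log2 fold change of 0.12 with the same ASO. The authors' deposited table gave RPL4 a log2 value of 0.012 with candidate 42 ASO3 in NCI-H460 (sleuth q = 0.0403). It is thus among the members counted as higher in that table, with a value close to no change.

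Between the lines, limma called 0 members in the test of a different response for any ASO, and 0 at an unadjusted p under 0.05. The shares of all genes called were 19.7% for candidate 42 ASO3, 0.0339% for candidate 42 ASO5, 0.0% for candidate 240 ASO1 and 1.21% for candidate 240 ASO3. The median difference for candidate 42 ASO3, A549 minus NCI-H460, was -0.28, with 74 of 77 members below 0, against 0.15 over all genes tested. The larger shift in NCI-H460 is therefore not shown to differ gene by gene.

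Of a list of 8 paralogs, close relatives of ribosomal proteins, 6 were tested in each line, and RPL3L and RPL10L averaged under the filter of 1 TPM. RPS27L, a target of p53, was higher in A549 controls (401 ± 45.3 TPM, SD, n = 3) than in NCI-H460 (160.45 ± 13.4 TPM, SD, n = 2; log2 difference 1.32, limma adjusted p = 9.82e-06). RPL22L1 was lower (289.9 ± 46 against 726 ± 14.6 TPM, log2 difference -1.34, limma adjusted p = 0.00013). Of the 6 paralogs 50% were called between the control libraries, beside 54.9% of all genes tested. With candidate 42 ASO3 in NCI-H460 RPL26L1 (0.42) and RPL36AL (0.43) rose and RPL7L1, which despite its name acts in assembly, fell by 0.69 on the log2 scale (limma adjusted p = 0.00143), from 59.3 and 61.4 TPM to 35.3 and 38.9 TPM. The share of paralogs called there, 50%, was near the 46.0% of all genes tested (13.2% higher and 32.8% lower). In the other 7 comparisons with control limma called 0 paralogs (0.0% to 13.8% of all genes tested), and between 0 and 2 were at an unadjusted p under 0.05. Outside the rule, FAU rose with candidate 42 ASO3 in NCI-H460 (0.56, limma adjusted p = 0.0239), and RACK1 (0.20) did not pass.

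Other genes of protein synthesis were called in both directions with candidate 42 ASO3 in NCI-H460, where 46.0% of all genes tested were called, 13.2% higher and 32.8% lower, with a median of -0.20. Of 14 translation factors and related genes known to carry TOP motifs, 1 rose (EIF3F, 0.40) and 3 fell, EIF4B (-1.92, limma adjusted p = 2.43e-05), NAP1L1 (-0.57) and PABPC1 (-0.54), with a list median of -0.01. EIF4B, an initiation factor that aids the helicase eIF4A, also fell with that ASO in A549 (-1.64, limma adjusted p = 3.32e-05), where it was the only one of the 14 called (10.1% of all genes tested). Members with the motif at an annotated start had a median of 0.36 (46 genes) and those without it 0.29 (16 genes).

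Of 40 ribosome assembly genes, 6 rose and 11 fell with candidate 42 ASO3 in NCI-H460 (median -0.14), a count near the 46.0% of all genes tested called there (13.2% higher and 32.8% lower, median -0.20). The 3 that moved most fell: DDX21 (-1.21), a nucleolar RNA helicase, POLR1B (-1.13), a subunit of RNA polymerase I, and WDR43 (-0.97), of the small subunit processome. In the other 7 comparisons with control at most 1 of the 40 was called: NIP7 with candidate 42 ASO3 and FTSJ3 with candidate 240 ASO3, both higher in A549, where 10.1% and 13.8% of all genes tested were called.

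Among 16 genes that control ribosomal protein synthesis, 15 were tested in NCI-H460, where 3 rose and 8 fell with candidate 42 ASO3 (median -0.37), beside 13.2% of all genes tested called higher and 32.8% lower there (median -0.20). EIF4E, the cap-binding protein, fell by 1.06, LARP1 fell by 0.91 and RPS6KB1, an S6 kinase, fell by 0.90 on the log2 scale. In A549 the same ASO lowered 3 of 16, DEPTOR (-1.07), RPTOR (-0.60) and MYC (-0.58), beside 10.1% of all genes tested called. With candidate 240 ASO3 in A549 RPTOR (-1.41), RPS6KB1 (-1.07) and MTOR (-0.80) fell and SESN1 (0.60) rose (13.8% of all genes tested called), while limma called 0 of the 15 with that ASO in NCI-H460 (4 at an unadjusted p under 0.05). In the other 4 comparisons with control limma called 0 of this list, and 0 to 5 were at an unadjusted p under 0.05.

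A list of 78 genes of the mitochondrial respiratory chain and ATP synthase, from which pseudogene names were left out after their values were seen, is given beside these. Of the 71 tested in NCI-H460, 21 rose and 1 fell with candidate 42 ASO3, beside 13.2% of all genes tested called higher and 32.8% lower. The median log2 fold change was 0.31 over the 71, 0.33 over the ribosomal protein genes and -0.20 over all genes tested. The median transcript length of the members was 681.5 bases and that of the respiratory list 678.75 bases, against 1758 bases over all protein-coding genes in GENCODE release 29. The respiratory list held 2.92% and 2.73% of the summed TPM in the 2 candidate 42 ASO3 libraries and 2.49% and 2.55% in the controls. The part of transcript length or abundance in the shift of the ribosomal protein genes was not tested.

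The authors' deposited tables, made with sleuth per the submitters' processing notes, gave q-values under 0.05 for more members. Shares in brackets in this paragraph count genes of either direction, so they are not a background for members called higher alone. In NCI-H460 41 of 77 were higher and 0 lower with candidate 42 ASO3 in the authors' deposited table (49.3% of its genes in either direction). With candidate 240 ASO3 18 were higher and 0 lower (6.91%), with 0 for candidate 42 ASO5 (0.0%) and 0 for candidate 240 ASO1 (0.0%). In A549 the authors' deposited tables listed RPL12 as the only member for candidate 240 ASO3 (11.6% of genes) and for candidate 42 ASO5 (5.56%), and 0 members for candidate 42 ASO3 (11.3%) and candidate 240 ASO1 (0.0%). For RPL12 the authors' deposited tables gave log2 values of 0.78 and 0.34 for these 2 A549 comparisons (q = 0.0375 and 0.0239), and 0.59 and 0.46 for candidate 240 ASO3 and candidate 42 ASO3 in NCI-H460 (q = 0.0301 and 0.049). All comparisons within a line share their control libraries.

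Ribosomal protein genes have many processed pseudogenes, and 1255 names in the table follow the pattern of a member's name with a P and a number. For 4 members these held over 5% of the summed TPM of gene and pseudogenes (median over libraries): RPL21 (30.3% in A549 and 43.1% in NCI-H460), RPL23A (12.4% and 10.9%), RPS28 (12.6% and 6.36%) and RPS2 (5.02% and 9.52%). Levels of these 4 are uncertain for that reason. RPL21, with a within-group SD of 0.41 (log2 TPM), was the most variable member in A549, followed by RPL28 (0.37) and RPL9 (0.35). In NCI-H460 the most variable were RPL36A (0.33), RPL23A (0.30) and RPS28 (0.28). For RPL12 the pseudogene entries held 0.751% to 1.41% in A549 libraries and 0.136% to 0.23% in NCI-H460, and for RPS16 at most 0.0563%.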

How the data were processed

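RNA was sequenced from 25 libraries of 2 cell lines (NEBNext Ultra RNA kit, per the labels' protocols). The submitters' processing notes name kallisto, sleuth 0.30 and hg38. The sources used here do not give the annotation or the handling of strand. The authors deposited a TPM signal per gene name, rescaled between libraries, and 8 tables holding a log2 fold change, a q-value and coordinates per gene. In these deposited tables the mean signals were not used here. Values were fitted as log2(TPM + 0.5) with limma 3.58.1 in R 4.3.3 (trended empirical Bayes), 5 groups of a line in 1 fit, for genes whose mean reached 1 TPM over the fitted libraries, adjusted over all genes tested by Benjamini-Hochberg. Differences between lines used 1 fit of all 25 libraries. The comparison of the controls of both lines was added after the data were seen. The members and lists were chosen with earlier results of these data known. The fit was tested on simulated data. Values of 1 member, which stays in the counts, are not reported here. The genes called only on centred values were named after their values were seen.

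Genes were named by rule: the 5 highest and lowest controls, the called members, genes of known role, the 3 most variable per line, and called paralogs and up to 3 called genes per list. Replicate numbers were taken to pair groups where all 3 same-number correlations of deviations exceeded 0.1, which held in A549 for candidate 240 ASO1 (0.17 to 0.41) and ASO3 (0.283 to 0.564) against control, for 42 ASO5 against ASO3 (0.128 to 0.411) and for 240 ASO3 against ASO1 (0.244 to 0.479). Alternatives were the pseudocount, the filter, the scaling, the groups fitted, the replicate block and leaving out each library.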

Additional observations from a re-analysis of the deposited data

Results flagged for a closer look

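RPL7L1, a paralog of RPL7 that acts in ribosome assembly, responded differently to candidate 42 ASO3 in the 2 lines. Its log2 fold change in A549 exceeded the one in NCI-H460 by 1.03 (SE 0.19, limma adjusted p = 0.00329 in the joint fit of 25 libraries), and this test of the difference is what singled it out. In that test 19.7% of all genes tested were called, 15.5% in the same direction as RPL7L1, so such a call was common. Against the control ASO, limma did not call RPL7L1 in A549. In A549 it had 48.4, 52.4 and 60.3 TPM with the ASO against 36.8, 43.9 and 46.5 TPM in controls, and in NCI-H460 35.3 and 38.9 TPM against 59.3 and 61.4 TPM. The difference was 0.93 to 1.10 with each library left out in turn, and its adjusted p was 0.088 on values centred on the median ribosomal protein gene. No group had the 4 libraries needed to look for a single outlying library.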

How the results depend on the processing

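The 11 settings and 25 fits without 1 library changed counts of called members and, as given above, the sign of several medians. In A549 the counts became 1 with cyclic loess for candidate 42 ASO3, 1 with sums of 1e6, cyclic loess or centring for candidate 42 ASO5, and 5 with cyclic loess, 3 with centring and 0 with only the compared groups for candidate 240 ASO3. For ASO5 against ASO3 of candidate 42 they were 1 with sums of 1e6, 2 with cyclic loess, 1 with the replicate block and 3 with centring, and for ASO3 against ASO1 of candidate 240 6 with cyclic loess, 2 with the replicate block, 2 with centring and 0 with only the compared groups. In NCI-H460 the 10 calls of candidate 42 ASO3 became 46 with median-of-ratios scaling, 16 with sums of 1e6 over other genes, 5 with cyclic loess, 17 with the replicate block, 1 with centring, and 0 without the filter or with only the compared groups, and 0 to 54 with 1 library left out. Its median was 0.051 with cyclic loess and 0.13 to 0.59 with 1 library left out. Candidate 240 ASO3 gave 1 call with sums of 1e6 (all or other genes), cyclic loess, centring or only the compared groups, with medians of 0.067, 0.089 and 0.014 under the first 3. Candidate 240 ASO1 had medians of 0.011, 0.017 and -0.015 under those 3, and 0.0014 to 0.19 with 1 library left out. ASO5 against ASO3 of candidate 42 gave 6 with sums of 1e6, 15 with median-of-ratios scaling, 7 with sums over other genes, 2 with cyclic loess, the replicate block or centring, 0 without the filter or with only the compared groups, and 0 to 52 with 1 library left out (52 without ASO3 replicate 2, 0 without ASO5 replicate 2). ASO3 against ASO1 of candidate 240 gave 1 with sums of 1e6, cyclic loess or centring. The test of a different response to candidate 42 ASO3 gave 2 with cyclic loess, 6 with the replicate block and 0 to 4 with 1 library left out. Apart from those given above for centring, the shares of all genes called under these settings are not given here, so the counts have no background. The causes were not tested. Centring was chosen after seeing the data. The replicate block moved no count of the other comparisons. In NCI-H460 the 2 pairs per comparison had correlations from -0.016 to 0.195, so the block there rests on the numbers alone. Depth is unknown, so its limit on these calls could not be given.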
